A study of Drosophila melanogaster with 12 samples.

Results

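DRIP-seq with S9.6 antibodies was used to locate DNA:RNA hybrids in control untreated and dH1-depleted S2 cells, and the regions described here are those on the chromosome arms where a peak was called only after dH1 depletion. The peaks of the 4 libraries without RNase H (RNH) treatment were merged into 12155 regions, where peaks that share at least 1 bp were joined. Of these, 7688 lay on arms 2L, 2R, 3L, 3R and X, and 273 of the arm regions held a peak of both dH1-depleted libraries and of neither untreated library. These 273 are called here dH1-only regions. They make 3.55% of the arm regions and 23.5% of the 1163 arm regions called in both dH1-depleted libraries. The regions were chosen by the presence or absence of a call in these 4 lists, so their number, width, score and distance to untreated-cell peaks are a description and were not tested. Calls after RNH treatment were not used in the choice and are compared at the end.

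S2 cells are a *Drosophila* cell line of embryonic origin. Depletion (labelled dsH1) lasted 8 days, with 100 μg of dH1 dsRNA given on days 1, 4 and 7, and control cells (labelled WT) were untreated. The effect of dsRNA itself and that of dH1 depletion cannot be told apart in this comparison. Each condition had 2 biological replicates, and each replicate gave an untreated immunoprecipitate, another from DNA digested with 6 U of RNH, and an input, all from genomic DNA treated with RNase A and sonicated to 500 to 1000 bp. A peak list was deposited for each of the 8 S9.6 libraries. Depth is unknown because the lists carry no reads, and the DNA comes from many cells, so more hybrids per cell and more cells with a hybrid cannot be told apart. The level of dH1 is not measured in these lists.

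An R-loop arises during transcription, when the transcript stays annealed to the DNA it was copied from and the complementary DNA strand is displaced. The S9.6 antibody binds the DNA:RNA hybrid and RNH degrades its RNA strand, so that RNH digestion serves as the control for the specificity of the antibody. dH1 is the only somatic linker histone of *Drosophila*. It binds the nucleosome and the DNA that enters and leaves it, and it stabilizes folded chromatin both in heterochromatin and along the arms, which are mostly euchromatic and hold most genes. Transposable elements are also inserted along the arms. Reads had been kept at all their alignment sites, so copies of an element share reads and their peaks are not independent. Neither the genes nor the repeated elements in these regions were analysed here, and no sequence is shown, since no genome of the dm3 build was at hand.

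The dH1-depleted lists differ in shape. The median width of their arm peaks was 221 bp in replicate 1, which had 5449 arm peaks, and 1316 bp in replicate 2, which had 3287. In untreated replicates 1 and 2 it was 1294 bp and 1266.5 bp, with 2622 and 2418 arm peaks. The peaks of replicate 1 were thus narrower than the sonicated fragments, and whether peak calling differed for this library was not tested. Every dH1-only region joins narrow peaks of replicate 1 with a wide peak of replicate 2. All 273 regions held exactly 1 peak of replicate 2, and this peak set both ends of 261 of them (95.6%). In 240 regions there was a single peak of replicate 1, in 18 there were 2 and in 15 there were between 3 and 6.

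The narrow peaks of replicate 1 lay well within the wide ones of replicate 2. Of the 335 replicate 1 peaks in dH1-only regions, 323 (96.4%, 95% Wilson interval 93.8–97.9%) were wholly inside the replicate 2 peak. Their centre was a median of 263.5 bp from the centre of the replicate 2 peak, which is 0.343 of the way from the centre to the end of that peak. The inner 50% of the replicate 2 peak held the centre of 233 of them (69.6%, interval 64.4–74.2%). Constant regions are the 702 arm regions with a peak in all 4 libraries. In them, 1096 of 1133 replicate 1 peaks lay on a replicate 2 peak, while in dH1-only regions all 335 did, as the rule requires. Of the 1096, the inner 50% held 713 (65.1%, interval 62.2–67.8%). Narrow peaks that lay on a replicate 2 peak thus had much the same place in both kinds of region. These intervals cover counting error only.

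**Figure D1:**
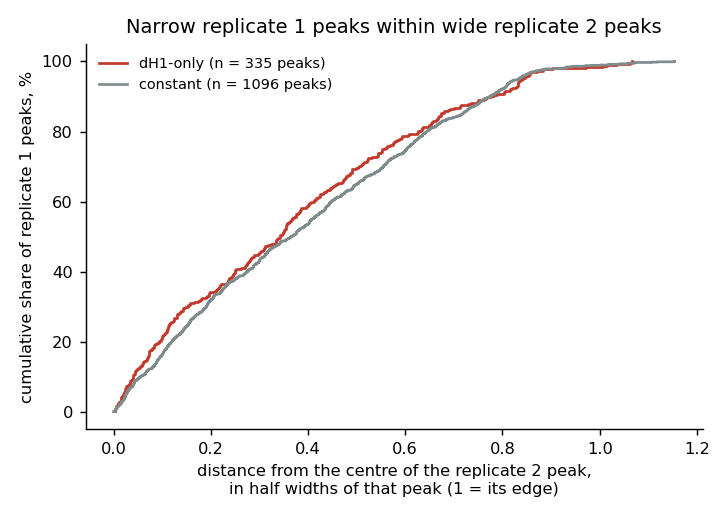
Place of replicate 1 peaks within the wide replicate 2 peaks of dH1-depleted cells. The x axis is the distance between the centres of both peaks, scaled so that 1 is the end of the replicate 2 peak. The y axis is the cumulative share of the replicate 1 peaks that lie on a replicate 2 peak, for dH1-only and constant arm regions. At 0.5 on the x axis the curves have reached 69.6% and 65.1%.

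The dH1-only regions were spread over the 5 arms. There were 60 on 3R, 59 on 2L, 56 on 2R, 54 on 3L and 44 on X. As a share of the merged regions of each arm, they made between 3.19% (3L, interval 2.45–4.13%) and 3.66% (2R, 2.83–4.73%) on the autosomal arms and 4.73% (3.54–6.29%) on X. The interval of X overlapped those of all other arms. Per Mb of arm, dH1-only regions were fewest on X (1.96), with between 2.15 (3R) and 2.65 (2R) on the autosomal arms. Along the arms they showed no marked preference for an end. With each arm divided into 4 equal stretches, these held, from the centromere outwards, 73, 65, 60 and 75 dH1-only regions, or 3.53%, 3.10%, 4.02% and 3.70% of the merged regions there, with overlapping intervals. The stretches of 2 Mb with the most dH1-only regions held 11 each. These lay between 14 and 16 Mb of 2R, where dH1-only regions were 8.94% of 123 merged regions, and between 6 and 8 Mb of 3R, where they were 7.38% of 149. By share, the stretch between 10 and 12 Mb of X was highest, with 12.5%, but this was 4 of 32 regions.

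At 50 kb, most dH1-only regions stood alone. When regions at most 50 kb apart were joined, 189 remained single, 27 groups had 2 regions, 7 had 3, 1 had 4 and 1 had 5. Thus 84 of the 273 (30.8%, interval 25.6–36.5%) had another within 50 kb. This share moved with the number of regions, to 11.8% at a minimum score of 100, 10.9% with equal numbers of peaks, 45.5% without untreated replicate 1, and 75.7% and 93.7%, thus most regions, without dH1-depleted replicate 1 or 2. The mirror set, 280 arm regions called in both untreated libraries and in neither dH1-depleted one (3.64% of arm regions), was grouped to nearly the same extent, with 188 single regions and 37 groups that held 92 of the 280 (32.9%, interval 27.6–38.6%). The median distance to the nearest region of the same kind was 126704 bp for dH1-only and 92661 bp for untreated-only regions. The nearest merged region of any kind was another dH1-only region for 13 of the 273 (4.76%), close to the 3.55% that dH1-only regions make of all arm regions.

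The group of 5 lay on X from 20095049 to 20188858 (dm3). Its regions were between 952 bp and 2611 bp wide, with scores of 51.05 to 92.09 in replicate 1 and 54.46 to 155 in replicate 2. The score of a peak is its MACS *p*-value on a -log10 scale multiplied by 10, and the lists begin at 50. The same stretch of X held 9 other merged regions, 8 of them with an untreated-cell peak and 3 of those constant, so the dH1-only regions there were interleaved with regions called in untreated cells. The group of 4, on 2R from 6814017 to 6905948, was interleaved in the same way with 14 other regions, 10 of them with an untreated-cell peak.

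Of the 3 groups of 3 with the shortest span, 2 held no other call. On 2L, from 22500587 to 22506923, 3 dH1-only regions lay within 6337 bp with no other merged region between them. Their scores were 74.65, 63.80 and 77.24 in replicate 1 and 70.46, 121 and 136 in replicate 2. On 3L, from 2434911 to 2449599, another 3 lay within 14689 bp, also with no other region between them. Their scores were 59.59, 55.53 and 83.23 in replicate 1 and 101, 210 and 72.62 in replicate 2. None of these 6 regions had a peak in an RNH-treated list. The other one, on 3R from 7196252 to 7213516, contained 3 other regions, of which 1 was constant and 2 were called in dH1-depleted replicate 2 alone.

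Many dH1-only regions lay beside an untreated-cell peak. The distance to the nearest one ranged from 13 bp to 497278 bp, with a median of 5995 bp. The median was 23824 bp at a minimum score of 100, 9710 bp without regions that had an untreated-cell peak within 1 kb, 10332.5 bp without untreated replicate 1 and 11459 bp without dH1-depleted replicate 2. In 27 regions (9.89%) it was at most 500 bp and in 52 (19.0%) at most 1 kb, which is the upper size of the sonicated fragments. Of these 52, 44 had within 1 kb a merged region that held peaks of both untreated and dH1-depleted cells. The share of such regions among all with an untreated-cell peak was not calculated, so this count is a description only. The nearest arm region was constant for 16 of the 52 (30.8%, interval 19.9–44.3%). Constant regions make 9.13% of all arm regions, although the 52 were picked by an untreated-cell peak nearby. Regions called in a single dH1-depleted library and in no untreated one were farther away, with a median of 12260 bp for the 3159 of replicate 1 and 9753 bp for the 1095 of replicate 2. An untreated-cell peak was found within 1 kb of 7.19% of the former and of 11.3% of the latter. Distances were taken between edges, and the median width was 200 bp for the former, 1135 bp for the latter and 1365 bp for dH1-only regions. The part of width in these differences was not tested. Beyond 50 kb there was little left to compare, since 86.4% of dH1-only regions and 84.6% and 84.7% of those called in replicate 1 or 2 alone had an untreated-cell peak within that distance.

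**Figure D2:**
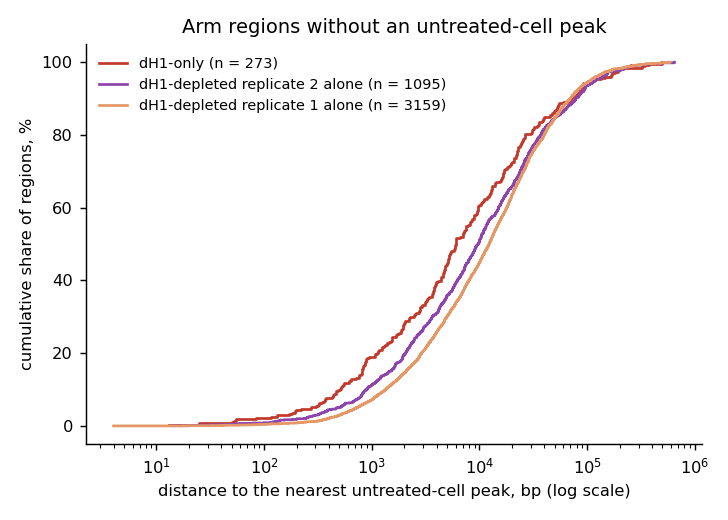
Distance to the nearest untreated-cell peak (x axis, bp, log scale) of arm regions without an untreated-cell peak, as a cumulative share of regions (y axis). The curve of dH1-only regions, with its median at 5995 bp, lies to the left of those called in replicate 2 alone (9753 bp) or replicate 1 alone (12260 bp), and the curves meet at long distances.

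The dH1-only region nearest to an untreated-cell peak lay on 2R from 761645 to 763271. It was 13 bp from that peak and scored 53.58 and 120 in dH1-depleted replicates 1 and 2. Another, on 2R from 6863773 to 6865097, was 25 bp away and scored 79.98 and 216. At the other extreme, a region on X from 7019358 to 7020935 was 497278 bp from any untreated-cell peak and scored 75.81 and 75.44. A region on X from 322183 to 328932 was 377197 bp away and scored 106 and 342. Regions near to and far from untreated-cell peaks were thus found at both low and high scores, although the lower of the 2 score percentiles had a median of 34.3 in the 52 regions within 1 kb and of 21.2 in the 107 regions over 10 kb away.

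By score, dH1-only regions ranked below constant regions in both lists. Their median percentile was 42.9 among all peaks of dH1-depleted replicate 1 and 39.6 among those of replicate 2, while constant regions had medians of 62.8 and 71.9 in the same lists. Arm regions called in replicate 1 alone or replicate 2 alone had lower medians, of 32.9 and 28.3. More than 1 replicate 1 peak was held by 30.8% of constant and 12.1% of dH1-only regions. The highest score was taken, and the part of this in the ranks was not tested. Only 39 of the 273 (14.3%, interval 10.6–18.9%) were above the list median in both replicates, in front of 363 of the 702 constant regions (51.7%, interval 48.0–55.4%). Below the median in both were 109 (39.9%). The upper quartile of both lists held 4 dH1-only regions and the top 10% of both held 0, which allows a share of up to 1.10% when 3 regions are taken as the limit of a count of 0. Untreated-only regions also ranked low in their own lists, at median percentiles of 32.9 and 32.6 in untreated replicates 1 and 2.

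The replicates did not rank the dH1-only regions in the same order. Across the 273 regions, the percentiles in the dH1-depleted lists had a Pearson *r* of -0.01 and a Spearman rho of -0.01. Across the 702 constant regions these were 0.30 and 0.35. Regions are not independent replicates, and both lists were cut at the same score, so these values describe the lists only.

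**Figure D3:**
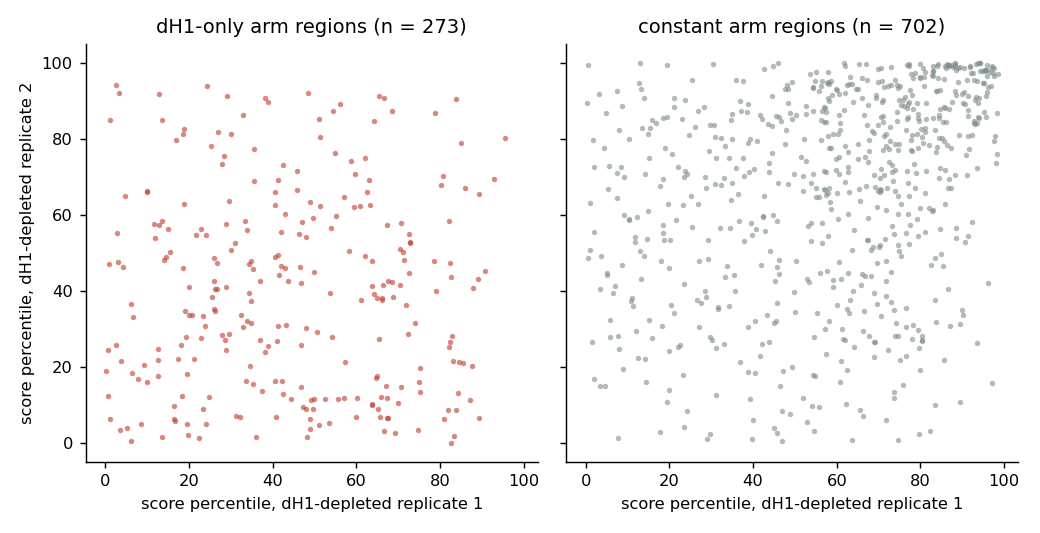
Score percentile in dH1-depleted replicate 1 (x axis) and replicate 2 (y axis), a point for each region. The 273 dH1-only regions (left) are spread over the plot with no common order (*r* = -0.01), and 39 of them are above the median in both lists. Many of the 702 constant regions (right) gather in the upper right corner (*r* = 0.30).

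A few dH1-only regions nevertheless ranked high in both lists. The highest by the lower of its percentiles lay on X from 11429283 to 11435098. It scored 192 in replicate 1 and 339 in replicate 2, at percentiles 83.9 and 90.6, and was 92073 bp from the nearest untreated-cell peak. Next came a region on 2L from 19147089 to 19154817, which scored 575 and 214 and held 6 peaks of replicate 1. Its score in replicate 1 was the highest of the 273. A region on 2R from 6546817 to 6554097 scored 204 in both replicates. On 3R, from 14246572 to 14248811, a region scored 153 and 277 and, from 18039333 to 18040406, another scored 165 and 160. The region on X had a score of 51.36 after RNH treatment in dH1-depleted replicate 1, and the others had no peak in any RNH-treated list.

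At the threshold of the calls, the differences between dH1-only and other regions were small. The weakest dH1-only region in its weaker list, on 2L from 12288293 to 12289251, scored 178 in replicate 1 and 50.05 in replicate 2. Another on 3R from 21942465 to 21943636 scored 50.06 and 63.92, and one on 2L from 16532921 to 16534658 scored 50.13 and 68.95. Just outside were 188 arm regions called in both dH1-depleted libraries and in 1 untreated library. Of these, a region on 3R from 15989557 to 15991551 scored 87.16 and 171 in dH1-depleted replicates 1 and 2 and 50.28 in untreated replicate 1. A region on X from 5916329 to 5917752 scored 67.95 and 50.97, and 50.65 in untreated replicate 1, and a region on 2R from 14943303 to 14944386 scored 79.31 and 107, and 50.73 in untreated replicate 2. The number of dH1-only regions followed the threshold. Raising the minimum score to 100 left 85, and taking the same number of best peaks from each list left 55. It was 1368 when replicate 1 of dH1-depleted cells was left out and 3525 when replicate 2 was.

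dH1-only regions had a median width of 1365 bp, between the 1983.5 bp of constant regions and the 1199 bp of untreated-only regions. The middle 50% of them were between 1034 bp and 1923 bp wide, and the median was 204 bp when dH1-depleted replicate 2 was left out. Their wide members set them apart in number from untreated-only regions. At least 5 kb wide were 19 of the 273 dH1-only regions (6.96%, interval 4.50–10.6%), 67 of the 702 constant regions (9.54%, interval 7.59–11.9%) and 1 of the 280 untreated-only regions (0.357%, interval 0.0631–1.99%). The rule requires both a narrow-peak list and a wide-peak list for dH1-only regions and wide-peak lists alone for untreated-only regions, and the part of this in the difference was not tested.

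**Figure D4:**
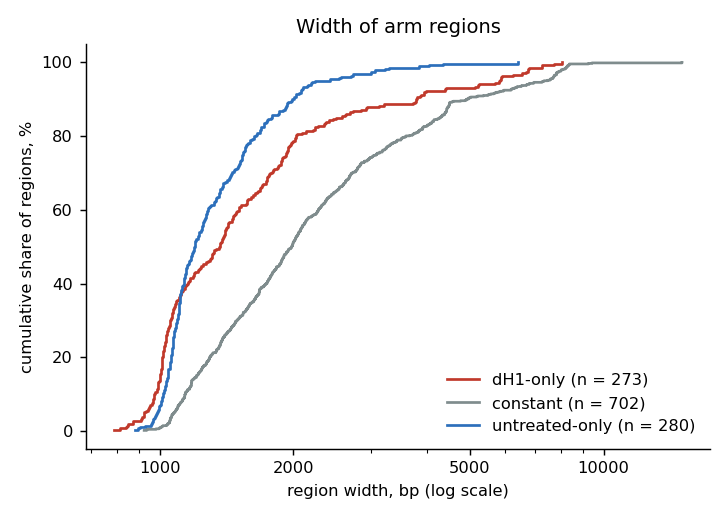
Width of arm regions (x axis, bp, log scale) as a cumulative share of regions (y axis). dH1-only regions follow untreated-only regions at small widths and have a tail of 19 regions of 5 kb and wider, which untreated-only regions do not have beyond 1 region.

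The 19 wide regions were between 5132 bp and 8074 bp, with 6 on 2R, 5 on 3R, 4 on X, 3 on 3L and 1 on 2L. They held more than 1 narrow peak of replicate 1 in 16 of 19 cases, in front of 17 of the 254 regions under 5 kb. Their percentiles were similar in both replicates in some, such as the region on 2R that scored 204 in both, at percentiles 85.1 and 79.0. In others they differed. The widest, on 3L from 924382 to 932455, scored 176 in replicate 1 and 71.20 in replicate 2 (percentiles 82.3 and 26.5), with 5 peaks of replicate 1. A region on 3R from 23999526 to 24006798 scored 263 in replicate 1 and 54.45 in replicate 2 (percentiles 89.4 and 6.75), with 4 peaks of replicate 1. The opposite was seen on 3R from 24618650 to 24623879, which had a single narrow peak of 353 bp in replicate 1. It scored 50.89 in replicate 1 and 373 in replicate 2 (percentiles 3.27 and 92.1). It was also seen on 2R from 3123412 to 3128624, which scored 61.34 and 351 (percentiles 29.1 and 91.3). Among the 19, 9 scored under 100 in replicate 2 and 4 did so in replicate 1, while 6 and 2 scored 300 and above. Of all dH1-only regions, 12 reached 300 in replicate 2 and 2 in replicate 1, so the wide regions made up both of the latter and 6 of the former. Scores of the replicates are not on a common scale, so these counts describe each list alone.

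After RNH treatment, a peak was called in few dH1-only regions. Each RNH-treated list of dH1-depleted cells had a peak in 10 of the 273 regions (3.66%, interval 2.00–6.61%), in front of 0.911% (replicate 1) and 2.21% (replicate 2) of all arm regions. In untreated replicates 1 and 2 these were 5 (1.83%) and 4 (1.47%), in front of 1.25% and 0.976% of all arm regions. In total, 250 of the 273 (91.6%, interval 87.7–94.3%) had no peak in any of the 4 RNH-treated lists, and the 23 that had one were 8.42%, in front of 3.89% of all arm regions. The latter were narrower, with a median width of 1023 bp in front of 1365 bp. Of them, 41.1% were called in dH1-depleted replicate 1 alone, with a median of 200 bp. The part of width in the comparisons with all arm regions was not tested. The share of dH1-only regions with an RNH-treated peak was 3.66% ± 0 in dH1-depleted and 1.65% ± 0.259 in untreated cells (SD, *n* = 2 each). The SD of 0 comes from equal counts of 10 in RNH-treated lists with 61 and 375 arm peaks, so it is no measure of replicate agreement. Over all arm regions the SD in these lists was 0.920. The difference was 2.01 percentage points, with *p* = 0.333 in a 2-sided exact permutation test. No lower value is possible with 2 libraries per condition. Each RNH-treated list shares its input with the RNH-untreated list of its replicate, so the lists are not fully independent of the choice of the regions. With equal numbers of peaks in the RNH-untreated lists, the RNH-treated lists being left uncut, the difference was 3.64 (*p* = 0.667 by the same exact test). It was 1.12 when peaks had to share 50% of the shorter one and 0.00 when the minimum score was 100. Leaving replicate 2 of dH1-depleted cells out of the choice gave 0.213. Without the regions that had an untreated-cell peak within 1 kb it was 0.679. By width, it was 2.17 in the 254 dH1-only regions under 5 kb and 0.565 in the 177 from 1 to 2 kb.

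The RNH-treated peaks of the dH1-depleted replicates did not fall on the same dH1-only regions. Of the 20 regions with such a peak (7.33%, in front of 3.02% of all arm regions), 10 had it in replicate 1, 10 in replicate 2 and 0 in both, although overlap of both lists was also rare over all arm regions (8 of 7688, 0.104%). Regions with an RNH-treated peak of replicate 1 had a median score of 183 in replicate 2 without RNH treatment, and those with an RNH-treated peak of replicate 2 had a median of 109. Of the 7 with an RNH-treated peak in untreated cells, 2 had it in both untreated replicates. A region on 3L from 22092472 to 22099160 scored 199 in RNH-treated replicate 2 of dH1-depleted cells and 315 and 88.94 in RNH-treated replicates 1 and 2 of untreated cells, and scored 76.64 and 375 in dH1-depleted replicates 1 and 2 without RNH treatment. A region on X from 3308904 to 3315659 scored 106, 513 and 220 in the same RNH-treated lists, and 133 and 59.37 without RNH treatment. By the rule that chose them, none of the 7 had an untreated-cell peak without RNH treatment. Lower scores were found in 2 regions called in 2 RNH-treated lists, on X from 5232717 to 5234428 and on 3L from 3330516 to 3333424, where the RNH-treated scores were between 50.39 and 63.08.

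The share of dH1-only regions with an RNH-treated peak lay between those of constant and untreated-only regions, but 4 libraries cannot bring the test of either difference below *p* = 0.125 (exact sign-flip test, 2-sided). In constant regions the dH1-depleted lists gave shares of 3.70% (replicate 1) and 6.27% (replicate 2), and the untreated lists 7.26% and 5.27%. dH1-only regions were lower in 4 of 4 libraries, by -2.97 ± 2.27 percentage points (SD, *n* = 4; exact *p* = 0.125), although by only -0.0407 in dH1-depleted replicate 1. This difference was -4.86 at a minimum score of 100. It was -5.63 with equal numbers of peaks in the RNH-untreated lists, the RNH-treated lists being left uncut. In untreated-only regions the share was 2.14% in dH1-depleted replicate 2, the RNH-treated list with the most arm peaks (375). It was 0 of 280 in the other lists, which allows a share of up to 1.07% by the same limit of 3 regions. dH1-only regions were higher in 4 of 4 libraries, by 2.12 ± 1.04 percentage points (SD, *n* = 4; exact *p* = 0.125). The direction turned, to -0.0255 (exact *p* = 1), when dH1-depleted replicate 2 was left out, and the difference was 1.01 without dH1-depleted replicate 1 and 0.970 at a minimum score of 100. Width moved with these calls. The 23 dH1-only regions with an RNH-treated peak had a median width of 3122 bp, in front of 1293 bp for the other 250. RNH-treated peaks were found in 6 of the 19 wide regions (31.6%, interval 15.4–54.0%) and in 17 of the 254 others (6.69%, interval 4.22–10.5%). Among regions from 1 to 2 kb wide, the difference from constant regions was -1.48 (exact sign-flip test, *p* = 0.125). That from untreated-only regions was 0.243 (*p* = 0.50 by the same exact test). Under 5 kb, these differences were -2.93 and 1.33 (*p* = 0.25 and 0.125 by the same exact test). The difference from constant regions was thus nearly unchanged without the wide regions, and that from untreated-only regions was smaller in both width classes. The part of width in these differences was not tested.

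**Figure D5:**
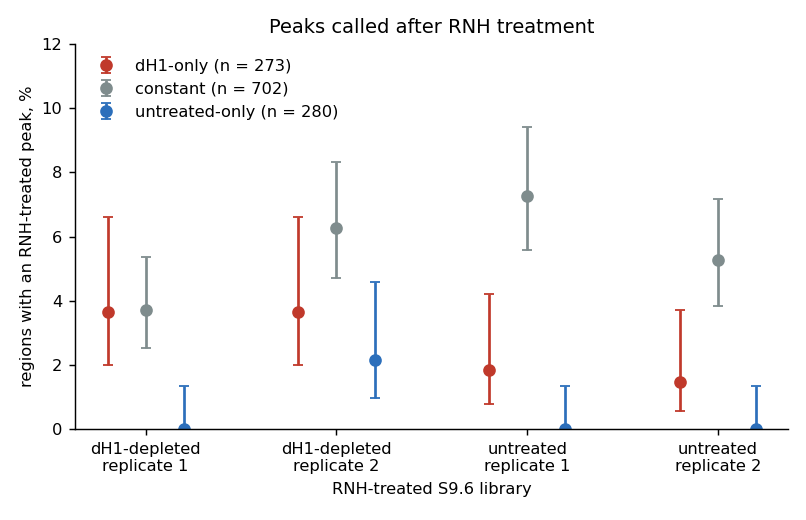
Share of arm regions with a peak in each RNH-treated S9.6 library (y axis, %), for dH1-only, constant and untreated-only regions. Points are shares in a library and bars 95% Wilson intervals, which cover counting error only. dH1-only regions lie at 3.66%, 3.66%, 1.83% and 1.47%, above untreated-only regions in each library and below constant regions.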

How the data were processed

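S9.6 DRIP-seq of S2 cells was analyzed in 2 conditions with 2 biological replicates. The authors aligned reads to dm3 with Bowtie 0.12.5, reporting every site for reads with up to 10000 of them. They removed duplicates using sambamba v0.5.1. MACS 1.4 (*p*-value threshold 1e-05) was run library by library with the matching input as control. The deposited lists hold peak positions in bp and a score. No normalization links the scores of different libraries, and they served here for ranks and thresholds inside each list. A percentile is the percent of a list's peaks at or under a score. Where a region held several peaks of a list, the highest score was taken. The coverage and DiffBind steps of the study need reads and were not repeated.

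Positions are given counted from 1. The length of an arm was its highest peak end in any list. Chromosome 4 and heterochromatic sequences were left out. Libraries were compared with exact permutation and sign-flip tests, and shares of regions were given Wilson 95% intervals. Libraries of the same replicate number share a code in their labels across both conditions, but the labels do not name it as a shared culture or day. The replicate number was used as a block only as an alternative. The regions, lists of comparison and rules were chosen with earlier results of these data known, and the alternatives restricted to widths were added after seeing the values. Regions named were those of highest rank in both lists, the widest, the largest groups, the nearest to and farthest from untreated-cell peaks, those with 2 or more RNH-treated peaks and those next to the threshold. Of the other wide regions, 3 were named after their values were seen. Python 3.11.15, NumPy 2.4.6, SciPy 1.17.1 and matplotlib 3.10.9 were used, and the calculation was tested on simulated data.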

Additional observations from a re-analysis of the deposited data

How the results depend on the processing

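The number of dH1-only regions (273) stayed between 221 and 278 with an overlap of 50% of the shorter interval, with widened narrow peaks, without regions near an untreated-cell peak, with the RNH filter and with chromosome 4. It fell to 85 at a minimum score of 100 and to 55 when the RNH-untreated lists were cut to the same number of peaks. When 1 list was left out, it was between 355 and 3525. When 1 list or 1 replicate was left out, the difference between conditions in the share with an RNH-treated peak was between 0.213 and 2.20 percentage points, that from constant regions between -3.67 and -1.99, and that from untreated-only regions between -0.0255 and 2.75. The last was below 0 only without dH1-depleted replicate 2 (-0.0255). With the replicate number as a block, the difference between conditions was 2.01 (exact sign-flip test of 2 pairs, *p* = 0.50, the smallest possible). The cause of these changes was not tested. Limits of all results are the unknown depth, the different peak shape in dH1-depleted replicate 1 and the number of libraries (2 per condition).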
